A study of Mus musculus with 8 samples.

Results

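Alveolar macrophages grown in culture were compared with the progeny of such cells after they had lived in a mouse lung. The comparison took 4 of the 8 RNA-seq libraries of the study, chosen by their labels, and covered 14537 tested genes out of 37310 gene IDs in the deposited count table. The first group, texAM, was cells of C57BL/6 donors, expanded in culture for 2 months and instilled into the trachea of 8-week-old CD45.1 (C57Bl/6-Ly5.1) mice. They were sorted 4 months later from whole lung as SiglecF+ CD11c+ CD45.2+ singlets. The group it was set against, exAM, was C57BL/6 alveolar macrophages after 2 months of culture, unsorted. Donor mice were 8 weeks old and wild type, and the labels name no genetic modification in any group. Each group held 2 libraries, each from a pool of 3 mice according to the labels. Levels in 2 further groups are given beside the results. The tAM group was alveolar macrophages transplanted with no culture named in the labels and kept for 4 months in vivo, and the HostAM group was the CD45.1+ alveolar macrophages sorted from lung.

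Alveolar macrophages live on the air side of the lung, where they clear surfactant, dust, microbes and dying cells. They depend on GM-CSF made by the alveolar epithelium and on TGF-beta, which together maintain the transcription factor PPAR-gamma and a lipid-handling programme, and they renew themselves with little input from blood. Outside the lung they can be expanded for long periods with growth factors, away from the epithelium, air and surfactant of the alveolus.

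Total counts were 9154128 and 8382620 in texAM against 6546272 and 7110439 in exAM, and 7733568 to 8898362 in the other 4 libraries. Principal component analysis placed both exAM libraries (scores 112.91 and 111) far from the 6 lung libraries (-40.09 to -34.38) on an axis holding 69.8% of the variance. The study's design differs between the groups in more than residence in the lung. The lung cells were sorted and the cultured cells were not, and Y-linked genes were counted in exAM but not in texAM. Time in culture was 2 months for both groups, but texAM cells then spent 4 months in the lung, so cell age differed too. The Y-linked gene Ddx3y, a helicase gene, had 0 counts in both texAM libraries against 55 and 59 counts in exAM, and Xist, the RNA that coats the inactive X chromosome, was at 1612 and 1759 CPM, read counts divided by TMM-scaled library size, in texAM against 801 and 1058 CPM in exAM. Sorting, sex-linked genes, cell age and site cannot be told apart in the comparison, and p-values measure the spread between pools. In bulk libraries, fewer cells of a type and less RNA per cell cannot be told apart.

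The labelled cell type was checked against its markers. The pan-leukocyte gene Ptprc (CD45) was at 718 and 753 CPM in texAM against 501 and 465 CPM in exAM. All 42 tested alveolar macrophage markers had counts in both texAM libraries, and 41 had them in both exAM libraries. Siglecf, one of the antigens of the sort, was at 279 and 321 CPM in texAM against 228 and 144 CPM in exAM, and Itgax, which encodes the other antigen CD11c, was at 617 and 658 CPM in texAM against 824 and 646 CPM in exAM. The exception in culture was Epcam, with 0 counts in both exAM libraries.

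The test found differences in a large share of genes. Of the 14537 tested genes, 6354 (43.7%) differed at an adjusted p under 0.05 in edgeR's quasi-likelihood test. Of these, 3372 (23.2% of tested genes) were higher in texAM and 2982 (20.5%) were lower. Each list count below is to be set beside these 2 shares. The libraries of the groups overlapped for 1 of the called genes, the glutathione-degrading enzyme gene Chac1. Over all tested genes, called or not, the libraries did not overlap for 11262 (77.5%). Genes higher in texAM moved further, with a median log2 change of 1.71, against -0.86 for genes lower in texAM. At least 2-fold changes numbered 2428 higher and 1223 lower, and changes of at least 16-fold numbered 787 higher and 273 lower. The direction also followed the level of expression. Among called genes with under 10 CPM in the group where they were higher, 987 were higher in texAM and 167 lower, whereas among those with 100 CPM or more there, 669 were higher and 1820 lower. Long noncoding classes leaned to texAM, with 43 of 109 tested lincRNA genes and 92 of 322 antisense genes higher against 5 and 7 lower. The strand setting of the counting is not known from the sources used here, so reads of an antisense gene and its partner may be mixed. Scaling by library size alone, without the TMM factors that correct for composition, called 4363 higher and 2042 lower (68.1% higher, against 53.1% with TMM) and gave a median log2 change over the tested genes of 0.33, against 0.11 with TMM.

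**Figure D1:**
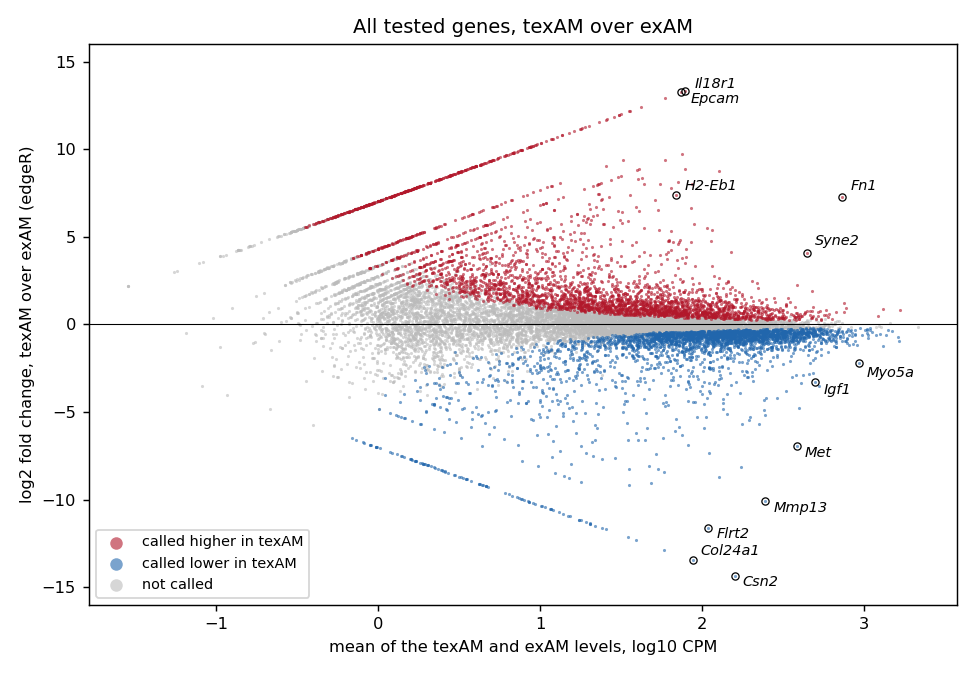
The log2 fold change of texAM over exAM (vertical axis) against the mean of the texAM and exAM levels in log10 CPM (horizontal axis), 1 point per tested gene, coloured by the call, with 12 genes of the text circled; 4 tested genes with 0 counts in both groups are not drawn. The straight edges at top and bottom are genes with 0 counts in 1 group, whose fitted change depends on the prior count. The median log2 change was 1.71 among genes called higher and -0.86 among genes called lower.

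The read density of a gene moved with its change. Over bins of mean counts per base of the longest annotated transcript, the median log2 change fell in every step, with 1.20 under 0.01 counts per base, -0.03 between 0.1 and 0.2, and -0.43 over 1 count per base. Of the 226 genes in the densest bin, 8.41% were called higher and 69.5% lower, against 21% and 9.35% in the sparsest. Within groups, too, the densest genes did not follow depth. The log2 ratio of total counts was 0.127 for texAM library 1 over texAM library 2, and the median log2 count ratio was 0.027 in the densest bin. For exAM library 2 over exAM library 1 these values were 0.119 and -0.006. The part of read density in the results on dense genes was not tested. For the alveolar macrophage marker, lysosomal, Toll-like and NRF2 lists, among those rich in such genes, the count under a scaling that takes out the trend with level (loess) is given beside the main one.

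**Figure D2:**
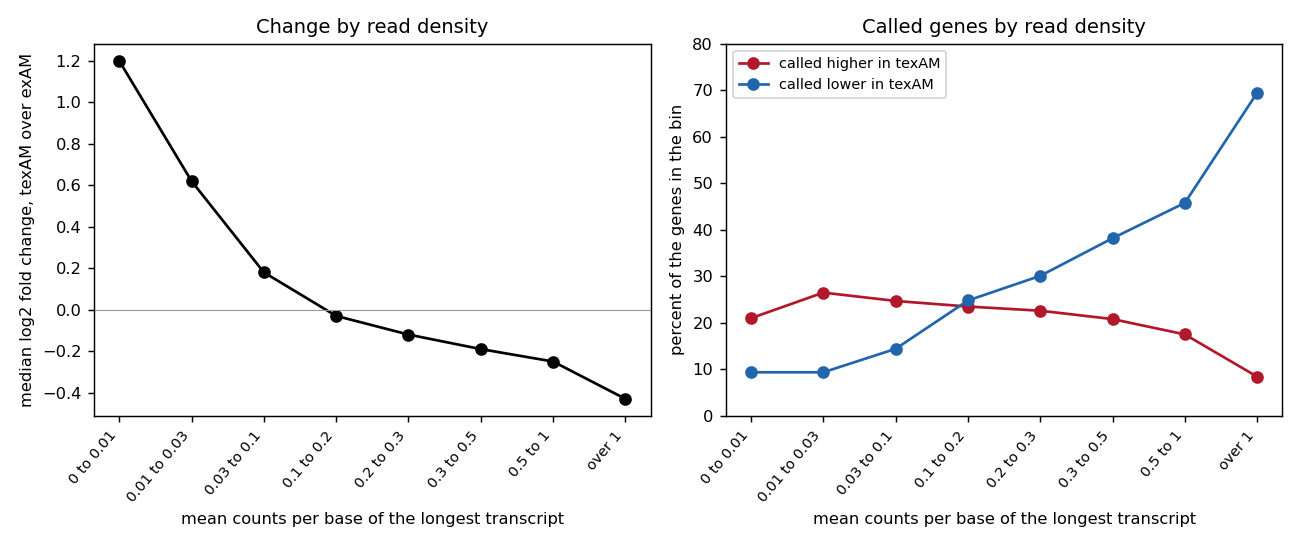
Left, the median log2 fold change of texAM over exAM, and right, the percent of genes called higher and lower in texAM, for tested genes in 8 bins of mean counts per base of the longest transcript (horizontal axes). The median was 1.20 in the sparsest bin and -0.43 in the densest, and the share called lower was 9.35% in the sparsest and 69.5% in the densest.

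A set of genes was read in culture and had no count at all after 4 months in the lung. By a rule of 0 counts in both texAM libraries and at least 10 CPM on average in exAM, 39 genes met it, with a median of 24.1 CPM in exAM. Of these, 34 also had 0 counts in both tAM libraries and 23 had 0 counts in all 6 lung libraries. The first was Csn2, which encodes the milk protein beta-casein. It had 0 counts in both texAM libraries, against 1906 and 1996 counts (327 and 308 CPM) in exAM, at least 1939-fold lower when 3 counts over the texAM group are taken as the floor. A pair of neighbouring casein genes showed the same pattern. Both had 0 counts in texAM and in the other 4 lung libraries, against 105 and 334 counts of Csn1s2a and 46 and 64 counts of Csn1s1 in exAM. These genes lie within a casein cluster on chromosome 5 (GRCm38), in which Csn1s1 spans chr5:87666208-87682578, Csn2 spans chr5:87692624-87699630 on the minus strand and Csn1s2a spans chr5:87774567-87788797. Of the 8 annotated genes from Csn1s1 to Csn3, these 3 had counts in culture and the other 5 had 0 counts in all 8 libraries. STAT5, the factor activated by GM-CSF and, in the mammary gland, by prolactin, binds motifs of the form TTCNNNGAA in casein promoters. The promoters of the 3 genes are shown because each holds this motif (in capitals, found by a search of both strands, which read alike for this motif), while 8.3% of the 32851 promoter windows of the same length in the table do. Of the 4 called genes listed with the caseins and whey proteins that have a window, 3 hold the motif and Mfge8 does not. The windows run from 250 bases before to 50 bases after the start in RefSeq annotation of GRCm38.p6, given 5' to 3' on the strand of the gene: Csn1s1 at chr5:87665958-87666257 (plus), Csn2 at chr5:87699376-87699675 (minus) and Csn1s2a at chr5:87774200-87774499 (plus).
Csn1s1: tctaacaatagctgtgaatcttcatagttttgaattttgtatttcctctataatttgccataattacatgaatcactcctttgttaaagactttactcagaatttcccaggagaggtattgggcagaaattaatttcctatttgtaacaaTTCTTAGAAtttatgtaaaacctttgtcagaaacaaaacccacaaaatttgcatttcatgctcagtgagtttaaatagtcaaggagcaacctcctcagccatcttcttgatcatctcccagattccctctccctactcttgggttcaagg
Csn2: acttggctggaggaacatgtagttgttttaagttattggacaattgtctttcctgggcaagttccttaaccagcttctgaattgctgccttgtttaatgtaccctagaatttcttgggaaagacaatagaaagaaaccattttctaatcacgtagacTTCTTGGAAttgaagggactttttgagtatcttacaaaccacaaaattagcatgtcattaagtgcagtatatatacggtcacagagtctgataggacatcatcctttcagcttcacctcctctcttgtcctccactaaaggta
Csn1s2a: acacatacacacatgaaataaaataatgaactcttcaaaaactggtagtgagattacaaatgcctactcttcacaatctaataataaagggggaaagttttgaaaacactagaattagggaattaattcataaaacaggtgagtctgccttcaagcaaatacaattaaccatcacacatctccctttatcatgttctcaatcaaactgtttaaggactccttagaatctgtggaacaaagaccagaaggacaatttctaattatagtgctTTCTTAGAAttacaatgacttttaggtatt
Counted from the RefSeq start, the match begins 100 bases before it in Csn1s1, 93 bases before it in Csn2 and 20 bases after it in Csn1s2a. The gene spans above are from GENCODE and place the start elsewhere for Csn2 and Csn1s2a. The Csn1s2a span begins at chr5:87774567, past the end of its window, so the match lies before that start. A match describes the letters and is no evidence of binding.

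Other members of the set are known from matrix, muscle and neurons. Col24a1, a fibrillar collagen gene, was at 0 in texAM against 145 and 204 CPM in exAM, at least 1075-fold lower. Serpinb9b, an intracellular protease inhibitor, and Npy, the neuropeptide Y gene, were at 0 in texAM, against 158 and 73.3 CPM of Serpinb9b and 86.4 and 70.3 CPM of Npy in exAM. Flnc, the muscle filamin, Slc6a12, a betaine and GABA transporter, and the cell adhesion gene Nrcam had 0 counts in texAM and means of 69.4, 51.2 and 43.8 CPM in exAM. For Nrcam the exAM libraries differed widely, at 10.3 and 77.4 CPM. Pdgfra and Cdh5, which mark fibroblasts and endothelium, were also in the set, with 19.6 and 41.5 CPM and 28.6 and 17.8 CPM in exAM. Kdr was at 0 and 0.456 CPM in texAM against 1.89 and 2.62 CPM in exAM, and Dcn at 0.104 and 0 CPM in texAM against 3.09 and 3.24 CPM in exAM. The 18 endothelial and stromal markers in the table summed to 274.3 and 270.8 CPM in texAM against 275.4 and 296.3 CPM in exAM. Most of that sum was Vwf, the von Willebrand factor gene, which was at 245 and 242 CPM in texAM against 208 and 219 CPM in exAM and did not pass the test.

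The reverse rule, 0 counts in both exAM libraries and at least 10 CPM in texAM, found 68 genes, with a median of 17.7 CPM in texAM. All 68 had a count in both tAM libraries and 64 in both HostAM libraries. Several are known as transcripts of other cells of the lung. Il18r1, a receptor chain for interleukin 18, was at 175 and 138 CPM in texAM and 0 in exAM, at least 645-fold higher, with 38.1 and 51.3 CPM in tAM and 17.1 and 35.3 CPM in HostAM. Cd3e, a chain of the T cell receptor complex, was at 82.1 and 60.8 CPM in texAM and 12.9 and 28.2 CPM in HostAM. The T cell genes Ikzf3, Tcf7, Bcl11b, Icos, Cd3g and Cd3d and the interleukin 2 receptor chain Il2rb belonged to the same set. Bpifa1 and Cyp2f2, genes of airway secretory cells, were at 151 and 84.2 CPM and 120.0 and 46.8 CPM in texAM, and the surfactant protein gene Sftpc was at 21.9 and 8.10 CPM in texAM. The globin genes Hbb-b1 and Hbb-bt, near-identical copies whose reads may be split between them, were at 37.4 and 33.8 CPM and 30.7 and 29.9 CPM in texAM. An exception was Epcam, an epithelial adhesion gene that is also listed as an alveolar macrophage gene. Its libraries were close, with 146 and 151 CPM in texAM against 0 in exAM, and with 166 and 181 CPM in tAM.

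Summed markers put values on these transcripts of other cells. The 22 epithelial markers summed to 704.9 and 451.5 CPM in texAM against 14.6 and 15.0 CPM in exAM, where 15 and 17 of them had 0 counts. The 9 red cell and platelet markers summed to 87.3 and 62.3 CPM in texAM against 2.06 and 0.154 CPM in exAM. Dendritic cell markers summed to 455.6 and 395.7 CPM in texAM against 111 and 89.1 CPM in exAM, with the chemokine gene Ccl22 as their most abundant member. The 23 lymphocyte markers summed to 364.3 and 283 CPM in texAM against 387.9 and 314.2 CPM in exAM, but the exAM sum was almost all Il7r, the interleukin 7 receptor, at 382 and 306 CPM in exAM. Of the 23 lymphocyte markers 2 and 4 had 0 counts in texAM, against 14 and 15 in exAM. Of the tested members, 20 of 21 epithelial and 11 of 14 lymphocyte markers were called higher in texAM. So were 10 of 12 dendritic cell and 5 of 6 red cell and platelet markers. The share called higher over all tested genes was 23.2%. The lymphocyte count was 6 without texAM library 1, 7 without texAM library 2, 6 without exAM library 1 7 without exAM library 2 and 7 under the loess scaling. In the other sorted groups the epithelial sums were 551.2 and 478 CPM in tAM and 854.6 and 1020 CPM in HostAM, and the lymphocyte sums were 84.8 and 165 CPM in tAM and 54.1 and 169.6 CPM in HostAM. Granulocyte and mast cell markers summed to 409.6 and 275.1 CPM in texAM against 289.2 and 165.5 CPM in exAM. Of their 6 tested members 4 were called higher and 0 lower (1 lower under the loess scaling). Markers of monocytes and other macrophages summed to 1733 and 1748 CPM in texAM against 2547 and 2240.4 CPM in exAM. Their sum fell, but 11 of 20 tested members were higher and 5 lower, with a median log2 change of 3.13. This list shares members with the alveolar macrophage markers, and the part of the shared members in the sum was not tested. The part of such RNA in results on genes that these cells share with macrophages was not tested.

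**Figure D3:**
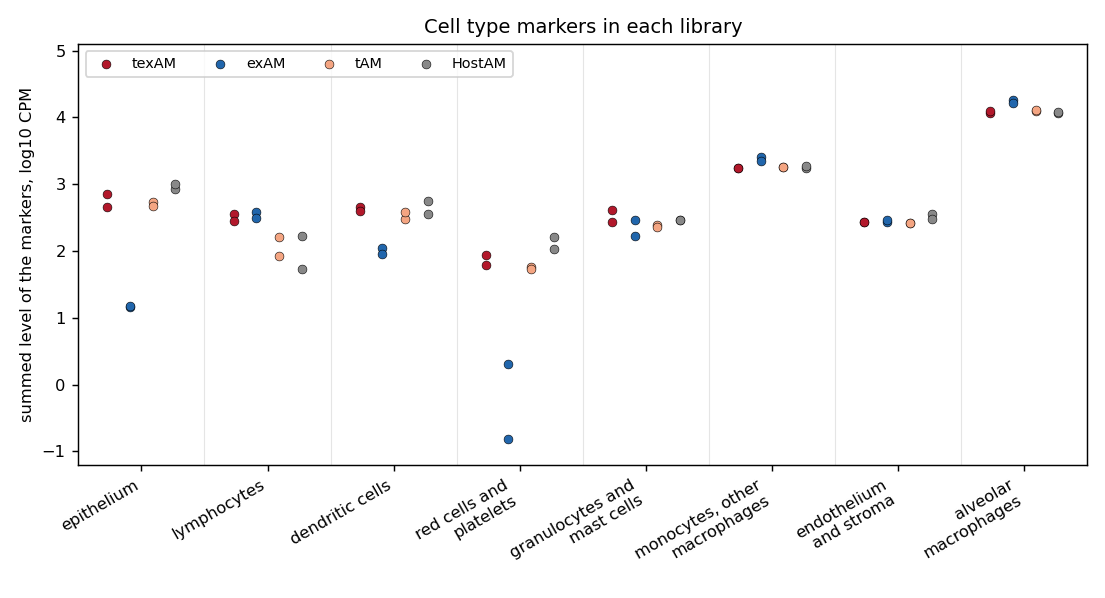
The summed level of each list of cell type markers in log10 CPM (vertical axis), 1 point per library, for the 4 groups side by side in each list. Epithelial sums were 704.9 and 451.5 CPM in texAM against 14.6 and 15.0 CPM in exAM, while alveolar macrophage markers summed to 11523 and 12490 CPM in texAM against 18404 and 16348 CPM in exAM.

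Among the identity genes of alveolar macrophages, several near 0 in culture were expressed in the lung, and many that were abundant in both places were lower in the lung. Krt79, a keratin, was at 149.8 and 188 CPM in texAM against 2.23 and 1.24 CPM in exAM, a log2 change of 6.62 (SE 0.240, adjusted p = 7.66e-08). Cidec, which enlarges lipid droplets, was at 196 and 225 CPM in texAM against 4.97 and 4.17 CPM in exAM (log2 change 5.53). Fabp1, a fatty acid binding protein, was at 83.6 and 94.2 CPM in texAM against 8.23 and 3.55 CPM in exAM. The groups were well apart for all of these, and the tAM means were 199, 273 and 98.4 CPM. Msr1, a scavenger receptor for modified lipoproteins and bacteria, fell to 87.3 and 57.7 CPM in texAM, against 811 and 665 CPM in exAM, and Ear6, a ribonuclease of the eosinophil-associated family whose copies are alike, fell to 7.20 and 9.35 CPM in texAM, against 73.4 and 86.3 CPM in exAM. Marco, another scavenger receptor, was at 196 and 211 CPM in texAM against 520.3 and 471 CPM in exAM, and Cd36, which takes up lipids, at 254 and 252 CPM in texAM against 828 and 670.0 CPM in exAM. In all, 10 of the 42 markers were higher and 25 lower, with a median log2 change of -0.45, beside 0.11 for all tested genes. The shares of all tested genes were 23.2% higher and 20.5% lower. Most of the list (36 of 42) exceeds 0.5 counts per base in a library, and with the loess scaling 19 were lower. The call for Siglecf ended without texAM library 2 (adjusted p = 0.0606), and Itgax did not pass the test.

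Transcription factors that set macrophage type changed in both directions. Maf, a basic leucine zipper factor of macrophages, rose to 45.6 and 34.7 CPM in texAM, against 1.03 and 2.62 CPM in exAM (log2 change 4.43). Epas1, which encodes the hypoxia factor HIF-2 alpha, was at 184 and 143 CPM in texAM against 741 and 792 CPM in exAM. Id2 and Id3, inhibitors of basic helix-loop-helix factors, both fell, Id3 to 4.39 and 3.99 CPM in texAM, against 65.0 and 60.8 CPM in exAM. Irf5 and Irf4, interferon regulatory factors, rose by log2 values of 1.72 and 1.37. Nr4a1, an orphan nuclear receptor, was at 28.7 and 18.5 CPM in texAM against 0.343 and 1.24 CPM in exAM. Some lineage factors changed far less, and of the 15 in the list 3 were higher, 5 lower and 7 not called. This lean depended on scaling. Under the loess scaling 6 of the 15 were higher and 2 lower, and with library size scaling 6 were higher and 3 lower. Pparg was at 162 and 199.7 CPM in texAM against 242 and 235 CPM in exAM, and its call ended without texAM library 1, without exAM library 1, under library size scaling and under the loess scaling. Spi1 (PU.1), the master factor of myeloid cells, was at 258 and 275 CPM in texAM against 357 and 301 CPM in exAM, and its call also ended without either texAM library or without exAM library 1, and under the loess, library size and replicate block fits. Bhlhe40, Runx1 and Tcf7l2 did not pass the test. Over the list, 16 of 43 factors were higher, 13 lower and 14 not called, with a median log2 change of 0.16, and 8 were lower with library size scaling. The called share was 67.4%, beside 43.7% of all tested genes (23.2% higher and 20.5% lower). Maf was at 12.3 and 25.1 CPM in tAM and 12.6 and 5.41 CPM in HostAM. Lymphocytes also express Maf. The T cell gene Cd3e was at 82.1 and 60.8 CPM in texAM, 26.7 and 56.9 CPM in tAM and 12.9 and 28.2 CPM in HostAM. The part of lymphocyte RNA in the Maf level was not tested.

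GM-CSF, M-CSF and TGF-beta signalling genes changed at the level of single components. Stat5a, 1 of the 2 STAT5 genes, rose to 122 and 119 CPM in texAM, against 32.1 and 33.7 CPM in exAM (log2 change 1.87, SE 0.129), while its partner Stat5b, at 101 and 99.8 CPM in texAM against 86.6 and 131 CPM in exAM, did not pass the test. Csf1r, the M-CSF receptor, and Csf2rb, the shared chain of the GM-CSF receptor, were lower in texAM with log2 changes of -0.72 and -0.60, and Csf2ra, the chain specific to GM-CSF, did not pass at 214 and 227 CPM in texAM against 268 and 245 CPM in exAM. Csf3r, the G-CSF receptor, rose to 130.1 and 80.2 CPM in texAM, against 0.343 and 1.85 CPM in exAM. Neutrophils also express Csf3r, and their markers S100a9 and Ltf were at 64.6 and 25.8 CPM and 41.3 and 11.3 CPM in texAM, with 0.343 and 0 CPM and 0.172 and 0 CPM in exAM. Osm, the cytokine oncostatin M and a STAT5 target, was at 35.7 and 31.0 CPM in texAM against 0.343 and 0.463 CPM in exAM. For TGF-beta, Pmepa1, a feedback inhibitor of the pathway, rose to 161 and 189.9 CPM in texAM, against 4.63 and 2.16 CPM in exAM (log2 change 5.71, SE 0.242, adjusted p = 1.6e-07). Smad3, which carries the signal to the nucleus, was at 29.97 and 16.9 CPM in texAM against 1.37 and 0.618 CPM in exAM, and the ligand Tgfb2 at 17.9 and 17.1 CPM in texAM against 0.343 and 0.463 CPM in exAM. Itgav, an integrin chain that activates latent TGF-beta, and Smurf1, which degrades receptors and Smads, fell by 1.47 and 2.02 on the log2 scale. Of 46 tested genes, 14 were higher and 12 lower, beside 23.2% and 20.5% of all tested genes. The median log2 change was 0.06, or -0.07 without texAM library 1.

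**Figure D4:**
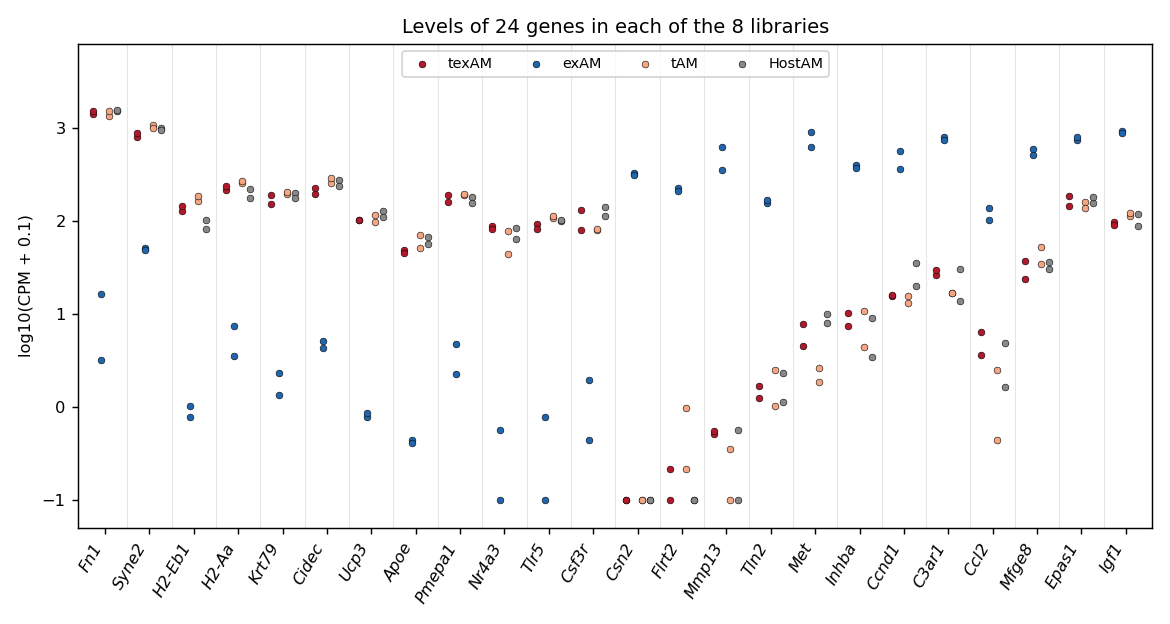
Levels of 24 genes named in the text as log10(CPM + 0.1) (vertical axis), 1 point per library and group, with texAM left of exAM and the tAM and HostAM libraries to the right of both. For all 24 genes the texAM and exAM libraries do not overlap, as for 77.5% of all tested genes, and some were chosen by that condition. The texAM points lie near those of tAM and HostAM. The lowest position on the axis is a count of 0.

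MHC class II genes, which present antigen to CD4 T cells, were nearly absent in culture and well expressed in the lung. H2-Eb1 was at 129 and 145 CPM in texAM against 0.686 and 0.926 CPM in exAM, a log2 change of 7.37 (SE 0.261, adjusted p = 6.85e-08). H2-Aa was at 213 and 235 CPM in texAM against 3.43 and 7.26 CPM in exAM, and H2-Ab1 at 209 and 226 CPM in texAM against 8.58 and 7.41 CPM in exAM. Their coactivator Ciita was at 59.4 and 63.4 CPM in texAM against 1.37 and 3.09 CPM in exAM. No library of one group reached into the range of the other for any of these, as for 77.5% of all tested genes. The class II list counted next also holds regulators, among them Rfx5 and Rfxank. Its counts stand beside 23.2% higher and 20.5% lower over all tested genes. Of 13 tested class II genes, 10 were higher and none was lower, with a median log2 change of 4.07, while 1 was lower without texAM library 2 and 1 under the loess scaling. Dendritic cells express these genes as well, and their markers Flt3 and Ccr7 stood at 16.1 and 11.4 CPM and 80.8 and 41.6 CPM in texAM, with 0 counts in exAM. Class II promoters carry a conserved array that ends in a Y box, the motif CCAAT. It occurs in 6 of the 7 called genes of the list with a promoter window in the RefSeq table, beside 37.4% of all windows. The 2 genes with a window that were not called, the regulators Rfx5 and Rfxank, both hold it. Matches were counted on both strands in the first window listed. The promoters of H2-Aa (chr17:34287774-34288073, minus strand) and H2-Eb1 (chr17:34305617-34305916, plus strand) are shown because these classical class II genes have a window in the table, with each CCAAT match on either strand in capitals.
H2-Aa: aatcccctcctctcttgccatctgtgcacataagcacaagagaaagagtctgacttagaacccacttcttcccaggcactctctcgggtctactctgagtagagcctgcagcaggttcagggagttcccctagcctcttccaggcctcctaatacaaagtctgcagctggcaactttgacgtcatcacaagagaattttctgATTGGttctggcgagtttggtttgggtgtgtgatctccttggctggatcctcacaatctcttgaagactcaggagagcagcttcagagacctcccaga
H2-Eb1: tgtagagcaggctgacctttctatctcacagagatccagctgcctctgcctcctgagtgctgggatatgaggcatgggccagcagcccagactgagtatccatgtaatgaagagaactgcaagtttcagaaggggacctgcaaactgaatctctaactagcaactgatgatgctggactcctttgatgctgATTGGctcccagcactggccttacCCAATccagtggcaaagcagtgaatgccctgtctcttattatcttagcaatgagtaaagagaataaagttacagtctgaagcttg
The capitals begin 48 bases before the start in H2-Aa and 59 and 35 bases before it in H2-Eb1.

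Class I genes followed in part. Nlrc5, the coactivator of class I genes, rose to 46.7 and 47.3 CPM in texAM, against 4.63 and 8.18 CPM in exAM (log2 change 2.86). H2-Q6 and H2-Q7, class I genes so alike that reads may be split between them, were at 48.4 and 41.8 CPM and 43.5 and 47.7 CPM in texAM against 0 and 0.463 CPM and 0 and 0.463 CPM in exAM. The light chain gene B2m was lower at 167 and 182 CPM in texAM against 271 and 245 CPM in exAM, and Mr1, which presents vitamin metabolites, fell by 1.57 on the log2 scale. Of 19 genes 11 were higher and 3 lower, beside 23.2% and 20.5% of all tested genes. Among co-stimulatory genes, Cd86 rose to 37.1 and 23.2 CPM in texAM, against 2.06 and 5.71 CPM in exAM, and Pdcd1lg2 (PD-L2) to 24.01 and 29.8 CPM in texAM, against 1.37 and 2.62 CPM in exAM. Cd274 (PD-L1) and Cd276 (B7-H3) were lower in texAM, Cd274 at 421 and 462 CPM in texAM against 820.0 and 849 CPM in exAM and Cd276 at 15.8 and 15.2 CPM in texAM against 111 and 64.2 CPM in exAM. In total 9 of 15 were higher and 4 lower.

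Chemokine genes went both ways. The monocyte attractants Ccl2, Ccl3 and Ccl9 were high in culture and low in the lung. Ccl2 was at 6.37 and 3.54 CPM in texAM against 136 and 101 CPM in exAM, Ccl3 at 23.9 and 16.5 CPM in texAM against 221 and 209 CPM in exAM, and Ccl9 at 85.1 and 75.9 CPM in texAM against 706 and 572 CPM in exAM. Ccl22 and Ccl17, ligands of CCR4, rose by log2 values of 2.78 and 1.62. Ccl22 is also listed as a dendritic cell marker, and the part of dendritic cell RNA in its level was not tested. Of 10 CC chemokine genes 3 were higher and 4 lower, beside 23.2% and 20.5% of all tested genes. All called CXC chemokine genes, 6 of 8 tested, were higher in texAM. Cxcl2, a neutrophil attractant, was at 36.3 and 23.5 CPM in texAM against 2.74 and 4.63 CPM in exAM, and Cxcl16, a ligand of CXCR6, at 44.1 and 23.4 CPM in texAM against 1.03 and 0.309 CPM in exAM. Of 15 chemokine receptor genes 8 were higher and 2 lower, with 1 lower without texAM library 2, 1 without exAM library 1 and 1 with library size scaling. Cxcr1 rose to 37.4 and 44.0 CPM in texAM, against 0.343 and 0.926 CPM in exAM, whereas Ccr1 fell to 52.3 and 56.4 CPM in texAM, against 166 and 122 CPM in exAM.

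Several growth factor genes fell steeply. Inhba, the activin A subunit, fell to 7.31 and 10.3 CPM in texAM, against 399 and 366 CPM in exAM, a log2 change of -5.45 (SE 0.399, adjusted p = 4.39e-06). Igf1, insulin-like growth factor 1, was at 97.4 and 90.5 CPM in texAM against 921 and 885 CPM in exAM, and Hbegf, an EGF receptor ligand, at 0.626 and 1.14 CPM in texAM against 20.2 and 17.8 CPM in exAM. Met, the receptor for hepatocyte growth factor, was among the 10 largest losses in CPM of the whole comparison, at 7.62 and 4.45 CPM in texAM against 903 and 618 CPM in exAM (log2 change -6.96). Of 19 growth factor genes 8 were lower and 3 higher, beside 20.5% and 23.2% of all tested genes. Cytokine genes ran the other way, with 12 of 20 higher and 4 lower. Il18 rose to 68.7 and 75.3 CPM in texAM, against 27.1 and 32.3 CPM in exAM, while Il1a was at 55.2 and 46.8 CPM in texAM against 133 and 214 CPM in exAM and its antagonist Il1rn at 376 and 384 CPM in texAM against 841 and 725 CPM in exAM. Lta and Ltb, which lymphocytes express, were at 25.1 and 21.9 CPM and 15.5 and 4.91 CPM in texAM, with 0 and 0 CPM and 0.172 and 0 CPM in exAM.

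Receptors for microbes and debris went both ways. Tlr5, the flagellin receptor, was at 92.2 and 81.1 CPM in texAM against 0.686 and 0 CPM in exAM (log2 change 7.99), with 108 and 113 CPM in tAM. Tlr9 and Ly86 (MD-1, partner of the receptor RP105) also rose, Ly86 to 33.1 and 34.7 CPM in texAM, against 1.72 and 0.618 CPM in exAM. Tlr3, Tlr7 and Tlr13, which sense RNA, were lower in texAM, with log2 changes of -1.56, -0.79 and -1.43. Mfge8, which bridges dying cells to phagocytes and was first found in milk fat globules, fell to 23.7 and 37.0 CPM in texAM, against 586 and 509 CPM in exAM (log2 change -4.18), and Colec12, a collectin scavenger receptor, to 38.9 and 48.1 CPM in texAM, against 412 and 225 CPM in exAM. Of 34 Toll-like and scavenger genes 7 were higher and 13 lower (10 lower under the loess scaling), beside 23.2% higher and 20.5% lower over all tested genes. Fcgr2b, the inhibitory IgG receptor, rose to 174 and 154 CPM in texAM, against 9.09 and 22.7 CPM in exAM, and Fcgrt, the recycling receptor of IgG, to 143 and 170.4 CPM in texAM, against 47.8 and 35.8 CPM in exAM, whereas the activating receptor Fcgr3 was at 154 and 166 CPM in texAM against 276 and 255 CPM in exAM. Clec4a3, an inhibitory lectin, and Siglece, a sialic acid receptor, rose by log2 values of 3.21 and 2.42. Trem1 was at 70.9 and 72.2 CPM in texAM against 14.1 and 18.8 CPM in exAM, and Trem2, a lipid sensor, moved the other way with 70.3 and 44.4 CPM in texAM against 187 and 158 CPM in exAM. In the lectin, Siglec, Fc and Trem list 21 of 51 were higher and 16 lower.

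Genes of adhesion, cell shape and matrix held some of the largest changes. Fn1, fibronectin, headed the gains in CPM, with 1404 and 1501 CPM in texAM against 16.3 and 3.09 CPM in exAM, a log2 change of 7.26 (SE 0.383, adjusted p = 5.11e-07), and 1344 and 1507 CPM in tAM. Syne2, a giant protein that ties the nucleus to the cytoskeleton, was at 795 and 871 CPM in texAM against 51.5 and 48.8 CPM in exAM (log2 change 4.06). Itgam, the CD11b chain of complement receptor 3 that is low on alveolar macrophages and high on most others, fell to 99.1 and 68.9 CPM in texAM, against 1127 and 822 CPM in exAM (log2 change -3.53). Itgad, the related CD11d chain, rose to 33.0 and 46.2 CPM in texAM, against 0.343 and 1.08 CPM in exAM, and Itgb7 rose to 40.2 and 39.6 CPM in texAM, against 0.343 and 0.309 CPM in exAM. Lymphocytes also express Itgb7, and its tAM and HostAM means were 11.6 and 11.3 CPM. Tln2, a talin that couples integrins to actin, fell to 1.15 and 1.60 CPM in texAM, against 156 and 166 CPM in exAM (log2 change -6.86). Of 32 actin and actin-binding genes 16 were lower and 5 higher, beside 20.5% and 23.2% of all tested genes. The bundling protein Fscn1, also listed as a dendritic cell marker, and the adaptor Pdlim1 were among the higher ones. Pdlim1 was at 128 and 150.2 CPM in texAM against 10.1 and 10.04 CPM in exAM. Myo5a, a vesicle-carrying myosin, was at 346 and 307 CPM in texAM against 1544 and 1518 CPM in exAM and headed the losses in CPM. Intermediate filament genes mostly rose (6 of 9), but Nes (nestin) was at 0.313 and 0.114 CPM in texAM against 61.1 and 22.7 CPM in exAM. In the integrin and adhesion list 17 of 40 were higher and 11 lower, and the higher count was 11 without texAM library 2 and 11 without exAM library 2. The abundant genes Itgb1, Cd44 and Flna were called lower here and had log2 changes above 0 under the loess scaling.

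Matrix and protease genes went both ways. Mmp13, a collagenase, was at 0.418 and 0.456 CPM in texAM against 623 and 356 CPM in exAM, a log2 change of -10.08 (SE 0.470, adjusted p = 2.89e-07), and Mmp12, the macrophage elastase, at 45.3 and 42.2 CPM in texAM against 666 and 568 CPM in exAM. Plau, the plasminogen activator urokinase, fell to 21.7 and 17.0 CPM in texAM, against 230.5 and 142 CPM in exAM. Slpi, an inhibitor of leukocyte elastase that airway epithelium also makes, was at 108 and 124 CPM in texAM against 8.23 and 5.25 CPM in exAM. Adam19, a membrane protease, rose to 159 and 122 CPM in texAM, against 0.515 and 0.463 CPM in exAM. Its means were 54.7 CPM in tAM and 45.1 CPM in HostAM. The Adam19 difference between texAM and tAM did not pass the test. Of 58 matrix and protease genes 32 were lower and 16 higher, beside 20.5% and 23.2% of all tested genes. Their median log2 change of -0.47 was 0.24 without genes over 0.5 counts per base. By role, 5 of 17 metalloproteinases and their inhibitors were higher and 9 lower, 4 of 22 cathepsins and serpins were higher and 15 lower, and 7 of 19 collagens and other matrix genes were higher and 8 lower. Among the genes known from osteoclasts and fused macrophages, 13 of 23 were lower and 3 higher, or 8 lower with library size scaling. Dcstamp, a fusion protein, was at 0.209 and 0.456 CPM in texAM against 12.3 and 8.34 CPM in exAM, and Ctsk, cathepsin K, at 216 and 215 CPM in texAM against 471 and 392 CPM in exAM. Nfatc1, the main osteoclast factor, moved the other way, at 330.3 and 356 CPM in texAM against 161 and 159 CPM in exAM.

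Genes of the response to low oxygen and of glycolysis fell together. Of 20 tested hypoxia targets 13 were lower and none was higher (1 with library size scaling), with a median log2 change of -1.10 (-1.22 under the loess scaling). Hilpda, a lipid droplet protein, was at 4.59 and 7.76 CPM in texAM against 31.0 and 46.0 CPM in exAM, and Vegfa, the vascular growth factor, at 7.10 and 3.76 CPM in texAM against 36.5 and 21.6 CPM in exAM. Of 21 glycolytic enzyme genes 13 were lower and 3 higher. For the counts of this paragraph, the shares of all tested genes were 20.5% lower and 23.2% higher. Pgk1 was at 35.8 and 37.4 CPM in texAM against 124 and 111 CPM in exAM, and Pgam1 at 19.5 and 17.0 CPM in texAM against 64.0 and 61.6 CPM in exAM. Against this trend Pfkfb4, which makes the activator of phosphofructokinase, rose to 151 and 153 CPM in texAM, against 38.9 and 37.5 CPM in exAM, and Pfkp to 254 and 305 CPM in texAM, against 151 and 172 CPM in exAM. The core of the hypoxia response element is ACGTG. In the first promoter window listed, it occurs in 7 of 12 called hypoxia targets and 5 of 6 not called, beside 19.6% of all windows. Hilpda, Vegfa and Mxi1 had no match in the first window but had a match in a later one. Arg1, arginase 1, was at 5.64 and 3.42 CPM in texAM against 76.7 and 31.3 CPM in exAM, and Ass1, which rebuilds arginine, at 16.2 and 12.9 CPM in texAM against 129.7 and 104 CPM in exAM. The amino acid transporters Slc38a1 and Slc7a8 went opposite ways, Slc38a1 to 386 and 342 CPM in texAM, against 89.2 and 51.1 CPM in exAM, and Slc7a8 to 136 and 127 CPM in texAM, against 430.3 and 462 CPM in exAM. Of 51 amino acid and one-carbon genes 22 were lower and 8 higher (5 higher without texAM library 2). Aldh1l2, a mitochondrial folate enzyme, was at 1.98 and 1.83 CPM in texAM against 12.3 and 113 CPM in exAM, where the libraries lay far apart.

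Lipid genes went both ways, also within their roles. Of 20 genes of fat oxidation 7 were higher and 5 lower, with 3 higher without exAM library 2, and of 19 genes of lipid droplets and binding 7 were higher and 8 lower. Ucp3, a mitochondrial carrier, was at 103 and 102 CPM in texAM against 0.686 and 0.772 CPM in exAM, a log2 change of 7.10 (SE 0.254, adjusted p = 6.85e-08). Pdk4, which spares glucose by blocking pyruvate dehydrogenase, was at 58.9 and 61.8 CPM in texAM against 0.343 and 0 CPM in exAM, and Dgat2, which completes triglyceride synthesis, at 53.04 and 72.4 CPM in texAM against 0.686 and 0.772 CPM in exAM. Apoe and Apoc1, apolipoproteins induced by liver X receptors, were near 0 in culture, with Apoe at 48.3 and 45.5 CPM in texAM against 0.343 and 0.309 CPM in exAM. The sterol exporter Abca1 rose to 256 and 269 CPM in texAM, against 93.3 and 52.0 CPM in exAM. Elovl7, an elongase, fell to 3.45 and 1.37 CPM in texAM, against 110.3 and 171 CPM in exAM, and Fabp7, a brain fatty acid binding protein, to 0 and 0.570 CPM in texAM, against 70.8 and 44.9 CPM in exAM. In cholesterol synthesis Dhcr7 fell to 112 and 125 CPM in texAM, against 507 and 354 CPM in exAM. Over all 84 lipid genes 27 were higher and 29 lower, and the median log2 change of -0.10 was above 0 under library size scaling (0.11) and the loess scaling (0.08). For these and the eicosanoid counts, the shares of all tested genes were 23.2% higher and 20.5% lower. Among eicosanoid genes Ptgs1 (COX-1) and Ptgir, the prostacyclin receptor, fell, Ptgs1 to 19.5 and 14.7 CPM in texAM, against 271 and 267 CPM in exAM, and Ltc4s, the leukotriene C4 synthase, rose to 58.8 and 68.2 CPM in texAM, against 19.4 and 15.6 CPM in exAM. The eicosanoid counts were 7 higher and 5 lower of 23, with 4 higher without texAM library 2 and 4 without exAM library 2.

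Most lysosomal genes were lower in the lung. Over all tested genes 20.5% were lower and 23.2% higher. Of 53 tested lysosomal genes 37 were lower and 3 higher, with a median log2 change of -0.61. The higher count was 1 without texAM library 1, 1 without exAM library 2, 5 under the loess scaling and 5 with library size scaling. Most of these genes are dense in reads (30 of 53 exceed 0.5 counts per base), and under the loess scaling 32 were lower and the median was -0.34. Ctsb, cathepsin B, was at 477 and 498 CPM in texAM against 1205 and 1029 CPM in exAM. Gla, alpha-galactosidase A, was at 98.1 and 85.7 CPM in texAM against 295 and 259 CPM in exAM, and Atp6v0a1, a subunit of the proton pump, at 252 and 262 CPM in texAM against 739 and 642 CPM in exAM. Gpnmb, a glycoprotein of stressed lysosomes, was at 389.7 and 402 CPM in texAM against 1026 and 874 CPM in exAM. Of 26 iron genes 12 were lower and 5 higher (3 higher without texAM library 1, 3 without exAM library 1). Slc11a1 (NRAMP1), which pumps metal out of the phagosome, fell to 31.2 and 14.9 CPM in texAM, against 144 and 154 CPM in exAM, and the transferrin receptor Tfrc to 30.5 and 19.96 CPM in texAM, against 82.1 and 51.3 CPM in exAM. In the list of NRF2 targets, metallothioneins and chaperones 24 of 45 were lower and 6 higher, but the lower count depended on single libraries and on scaling. It was 15 without texAM library 1, 13 without texAM library 2, 15 without exAM library 1, 17 under the loess scaling and 12 with library size scaling. Hmox1, haem oxygenase 1, was at 243 and 210.1 CPM in texAM against 461 and 388 CPM in exAM.

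Complement genes rose more often than they fell, with 9 of 19 higher and 3 lower, beside 23.2% and 20.5% of all tested genes. Among the lower genes was C3ar1, the receptor for the anaphylatoxin C3a. It fell to 26.1 and 29.4 CPM in texAM, against 790.1 and 745 CPM in exAM (log2 change -4.79, SE 0.270). C1qc and Cfb, a C1q chain and factor B, rose to 16.9 and 11.3 CPM and 14.3 and 13.6 CPM in texAM, against 0.686 and 0.154 CPM and 1.20 and 0.926 CPM in exAM. F2r, the thrombin receptor, was at 28.3 and 20.1 CPM in texAM against 0.172 and 0.309 CPM in exAM, and F3, tissue factor, fell to 1.36 and 1.48 CPM in texAM, against 22.98 and 14.98 CPM in exAM. Of 13 coagulation genes 7 were lower and 3 higher, with 2 lower without texAM library 1, 4 without texAM library 2, 4 without exAM library 1, 4 without exAM library 2 and 3 with library size scaling.

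Genes switched on within minutes of a stimulus were mostly higher in the sorted cells. Nr4a3, an orphan nuclear receptor, was at 87.1 and 82.1 CPM in texAM against 0 and 0.463 CPM in exAM, and Fosb, a component of the factor AP-1, at 12.01 and 25.1 CPM in texAM against 0.515 and 0.772 CPM in exAM. Btg2, an antiproliferative feedback gene, rose to 159.8 and 163 CPM in texAM, against 28.5 and 33.2 CPM in exAM. Jun and Atf3 fell, Atf3 to 50.01 and 25.0 CPM in texAM, against 265 and 252 CPM in exAM, and Fos did not pass the test. Of 37 immediate early genes 22 were higher and 3 lower (5 under the loess scaling), and their median log2 change was 0.82. The lung cells were sorted and the cultured cells were not, and handling and residence cannot be told apart for these genes. Genes of the glucocorticoid response went both ways, with 7 of 20 higher and 6 lower (3 lower without texAM library 1). Tsc22d3 (GILZ) rose to 107 and 119.9 CPM in texAM, against 27.8 and 30.9 CPM in exAM. Of 19 clock genes 4 were higher and 4 lower, the lower count being 2 without texAM library 1, 2 without exAM library 1, 2 without exAM library 2, 2 with library size scaling and 2 under the loess scaling. Over all tested genes the shares were 23.2% higher and 20.5% lower. Per1, a clock repressor that glucocorticoids also induce, was at 77.5 and 104 CPM in texAM against 46.8 and 44.9 CPM in exAM, and Arntl and Cry1 did not pass the test. Of 50 interferon genes 17 were higher and 6 lower, with 2 lower without texAM library 2, 2 without exAM library 1 and 3 with library size scaling. Among the 39 interferon-induced genes 11 were higher and 4 lower, and their median log2 change of 0.18 was -0.15 under the loess scaling and -0.07 without exAM library 2. Irf1 and Irf9 rose by log2 values of 1.57 and 1.09, and Slfn5 fell to 29.8 and 19.8 CPM in texAM, against 126 and 124 CPM in exAM.

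Few proliferation genes were lower in the lung. Over all tested genes 23.2% were higher and 20.5% lower. Of 42 replication and mitosis genes 29 were not called, 12 were higher and 1 was lower in texAM. The higher count was 7 without texAM library 1, 5 without exAM library 2 and 19 with library size scaling. Cenpf, a kinetochore protein, was at 74.3 and 83.5 CPM in texAM against 29.2 and 25.0 CPM in exAM. Mki67, the proliferation antigen and the lower member, was at 639 and 553 CPM in texAM against 835 and 761 CPM in exAM, and its call ended without texAM library 2 and under the loess and library size scalings. Of 17 cyclins, kinases and inhibitors 2 were higher and 6 lower. Ccnd1, cyclin D1, fell to 15.6 and 15.7 CPM in texAM, against 567 and 359.8 CPM in exAM, a log2 change of -4.89 (SE 0.296, adjusted p = 1.21e-06). Cdkn1b, the inhibitor p27, rose to 112 and 103 CPM in texAM, against 33.3 and 44.5 CPM in exAM, and Cdkn1c, the inhibitor p57, fell to 1.98 and 1.37 CPM in texAM, against 23.8 and 18.1 CPM in exAM. Of 19 p53 targets 9 were lower and 3 higher (1 higher without texAM library 2), Zmat3 at 205 and 208 CPM in texAM against 817 and 762 CPM in exAM and Plk2 at 19.8 and 7.30 CPM in texAM against 238 and 180.5 CPM in exAM.

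Guidance genes are best known from growing axons, and here they went both ways. Flrt2, a ligand of the Unc5 receptors, had 0 and 1 counts in texAM against 1315 and 1359 in exAM, an exAM over texAM ratio of 3986 with a 95% counting interval of 715 to 157000 and a level of 226 and 209.8 CPM in culture. Plxna2, a semaphorin receptor, was at 6.68 and 3.08 CPM in texAM against 127 and 91.6 CPM in exAM, and Sema3e, a secreted semaphorin, at 64.5 and 56.0 CPM in texAM against 216 and 235 CPM in exAM. Sema6d rose to 171 and 173 CPM in texAM, against 46.0 and 76.0 CPM in exAM, and Notch1 to 174 and 157 CPM in texAM, against 89.9 and 88.2 CPM in exAM. Of 40 tested guidance and synaptic genes 13 were higher and 10 lower, with 8 higher without exAM library 2, beside 23.2% higher and 20.5% lower over all tested genes. Among retinoid genes, Rbp4, a carrier of retinol, fell to 0.209 and 0.228 CPM in texAM, against 80.3 and 59.8 CPM in exAM, and Aldh1a2, which makes retinoic acid, rose to 17.1 and 18.9 CPM in texAM, against 1.89 and 0.154 CPM in exAM. In the list of aryl hydrocarbon and retinoid genes 7 of 15 were higher and 4 lower. The DNA methyltransferase Dnmt3a was lower at 427 and 437 CPM in texAM against 749 and 812 CPM in exAM. Of 52 chromatin enzyme genes 14 were higher and 7 lower, with 8 higher without texAM library 1, 8 without exAM library 1 and 22 with library size scaling, and 4 lower without texAM library 2 and 3 with library size scaling. Kdm6b, a histone demethylase, rose to 136 and 134 CPM in texAM, against 48.0 and 53.6 CPM in exAM.

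**Figure D5:**
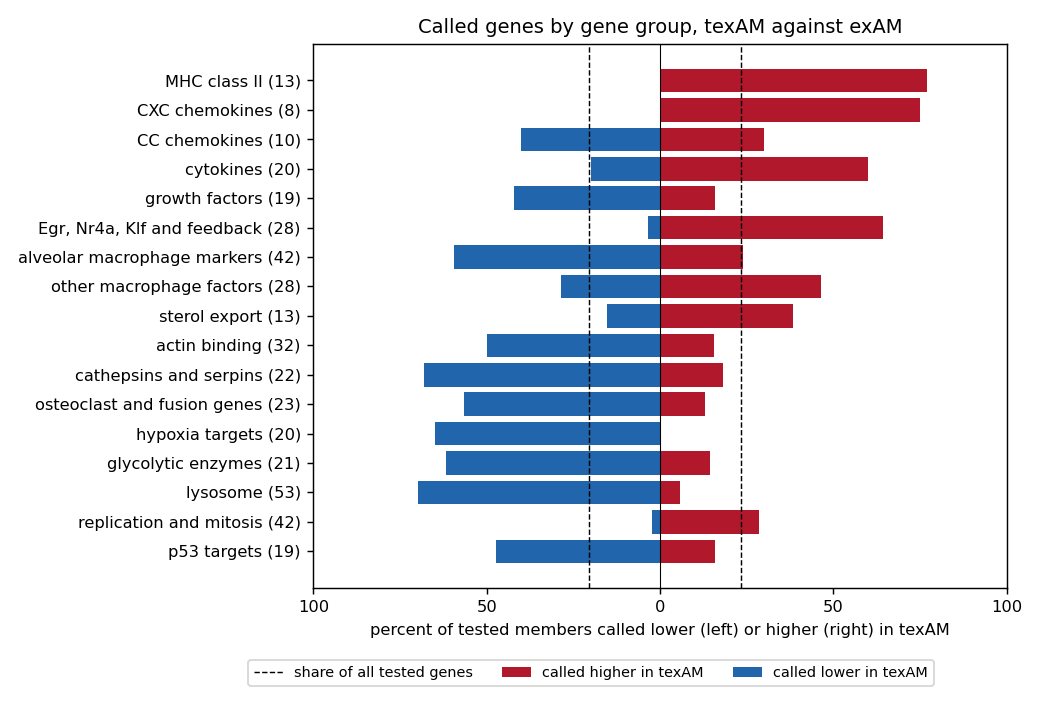
The percent of tested members of 17 gene groups called higher (right of 0) or lower (left of 0) in texAM, with the number of tested members in brackets and dashed lines at the shares of all tested genes, 23.2% higher and 20.5% lower. In the MHC class II group, which also holds regulators such as Rfx5 and Rfxank, 10 of 13 were called higher and none lower. Of the lysosome genes 37 of 53 were called lower.

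Few differences were called between the texAM cells and the other transplanted cells, tAM, after the same time in the lung. The texAM libraries set against the tAM libraries in the same fit gave 1 called gene of 14537 (0.00688%), with 1139 genes at an unadjusted p under 0.05. The called gene was Arap2, a regulator of small GTPases, at 23.4 and 15.97 CPM in texAM against 1.86 and 2.63 CPM in tAM (log2 change 3.13, adjusted p = 0.0373). The comparison shares its texAM libraries with the one above. A count this low in 2 libraries per group does not show that the cells were alike.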

How the data were processed

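The files hold raw counts per gene, which the authors deposited for 8 libraries made from 2 ng of RNA with linear amplification, per the labels' protocols. The submitters' processing notes name Bowtie, HTSeq 0.6.1, R 3.3 and mm10 (GRCm38). Whether reads were counted by strand is not given in the sources used here, so antisense, overlapping and near-identical genes are uncertain. The table spells texAM as teAM. Columns were matched to samples by title.

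Counts of all 4 groups were fitted with edgeR 4.0.16 (R 4.3.3, limma 3.58.1) using TMM factors, a filter at a minimum count of 10 and the quasi-likelihood test with Benjamini-Hochberg adjustment over 14537 genes. The contrast was texAM minus exAM, and the biological coefficient of variation was 0.22 on 4 residual degrees of freedom. CPM values use TMM library sizes. The floor for folds against 0 was 3 counts over the group, and counting intervals cover counting error only. Replicates differed beyond sampling noise (chi-square per degree of freedom 7.55 in texAM and 8.77 in exAM). Of the gene IDs, 87.4% were found in GENCODE M21. Promoter sequences are from RefSeq.

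The genes named lead the changes by fold or by CPM (called, at least 10 CPM in a group, libraries not overlapping), lead each functional role by fold, or belong to a small role, to a marker list or to the lists of identity, transcription factor, CSF and TGF-beta, clock and sex-linked genes. Arap2, Flna and Chac1 fell outside this rule and were chosen after their values were seen. A few list members are not reported here by name but are kept in the counts and medians. The members and lists were chosen with earlier results of these data known. Alternatives were other scalings (DESeq2 1.42.0 size factors, library size, loess), DESeq2's Wald test, other filters, the 4 libraries alone, a replicate block and leaving out each library.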

Additional observations from a re-analysis of the deposited data

How the results depend on the processing

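With 2 libraries per group the counts of calls depend on single libraries. Genes higher in texAM numbered 2162 to 2421 and genes lower 2098 to 2448 when 1 library was left out, a step that also leaves fewer samples; the lone library is then assumed to vary like the other groups. The 2162 came without exAM library 1. Counts were 3260 higher and 3119 lower with DESeq2's Wald test, 2879 and 2922 with loess scaling (chosen after seeing the data), and 4363 and 2042 with library size scaling. A change of at least 2-fold left 2428 higher and 1223 lower. Genes at 0 in texAM numbered 61 at 5 CPM or more, and 41 to 51 without 1 library. Genes at 0 in exAM numbered 140 at 5 CPM or more, 29 at 20 CPM or more, and 59 to 98 without 1 library. Among genes reported by name, log2 changes turned positive under the loess scaling for Itgb1 (0.02), Cd44 (0.02), Flna (0.09) and Crebbp (0.07); the cause was not tested.

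Of 770 called genes in the lists or among the ranked changes, 224 lost the call without 1 of the libraries, 90 under the loess scaling, 78 under library size scaling and 38 with a replicate block. Same-numbered libraries shared only a number (correlation of deviations -0.017), and the fit with the replicate block called 3129 higher and 2803 lower. Of 127 list and role medians, 36 changed sign under some setting. Groups of 2 were too small to test for outlying libraries.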
